A study of Mus musculus with 6 samples.

Results

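The genes of the TEAD transcription factors and of the cofactors that compete for them were read from 6 Affymetrix Mouse Gene 1.0 ST arrays, 3 of NME cells and 3 of AGR cells. The 9 genes were the cofactor genes Vgll1, Vgll3 and Vgll4, the transcription factor genes Tead1, Tead2, Tead3 and Tead4, and the coactivator genes Yap1 and Wwtr1, the last of which encodes Taz. All 9 had a probe set of their own among the 19938 genes so represented. NME cells are normal murine mammary gland cells (NMuMG) transformed by viral overexpression of EGFR under puromycin selection. AGR cells descend from 1 colony of NME cells that grew out in 3D culture on cultrex in the presence of 1 µM AG1478, an inhibitor of EGFR kinase, and was then expanded in 2D culture. Both lines therefore carry the EGFR construct, and both were grown in DMEM with 10% serum and insulin. AGR cells stand for a single resistant colony, and resistance, 3D outgrowth and clonal origin cannot be told apart. Resistant lines of the study were kept without drug once established. Whether AG1478 was present when RNA was taken, and whether the 3 arrays of a line came from separate cultures, is not given in the sources used here.

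TEAD proteins bind DNA but activate little by themselves and depend on cofactors that occupy a common surface. Yap1 and Taz are coactivators that the Hippo kinase cascade keeps out of the nucleus by phosphorylation, and they have been studied widely in growth, EMT and drug resistance of epithelial tumours. The vestigial-like (Vgll) proteins bind TEADs through a short Tondu motif in place of Yap1 or Taz. Vgll4 acts mainly as a repressor of TEAD, whereas Vgll1 and Vgll3 have been described as activating partners.

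The 9 genes were chosen with results of these arrays known, and for each gene the brightest probe set was read. The differences between AGR and NME cells are therefore given as a description without a test. Values are the log2 of the intensities deposited by the authors, with the SD over 3 arrays, and levels are not compared between genes because probe sets differ in affinity. All probe sets together had a median log2 intensity of 7.60. Signal and background could not be separated below about this level, since no detection calls were used here.

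Promoters of the members are shown because TEAD proteins are known to act at some genes of their own pathway, and because Vgll3 differed so much between the lines. Of the 9 members, 7 had a promoter in the RefSeq table of build GRCm38.p6, and those of Tead1 and Tead4 were not analysed here. The 250 bases before the annotated start are shown 5′ to 3′ for Vgll3, Tead2, Vgll4 and Yap1, whose signals were higher on every AGR array, and for Wwtr1 and Vgll1, whose signals overlapped. For Wwtr1 the more upstream of the listed starts is given. Capitals mark the core of the TEAD element, GGAATG, on either strand (CATTCC).
Vgll3, chr16:65814939-65815188, plus strand: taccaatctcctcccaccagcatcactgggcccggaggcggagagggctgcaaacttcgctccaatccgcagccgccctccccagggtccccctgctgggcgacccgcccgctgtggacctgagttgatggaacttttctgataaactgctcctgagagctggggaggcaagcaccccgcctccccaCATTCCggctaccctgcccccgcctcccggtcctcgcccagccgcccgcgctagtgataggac
Tead2, chr7:45215542-45215791, plus strand: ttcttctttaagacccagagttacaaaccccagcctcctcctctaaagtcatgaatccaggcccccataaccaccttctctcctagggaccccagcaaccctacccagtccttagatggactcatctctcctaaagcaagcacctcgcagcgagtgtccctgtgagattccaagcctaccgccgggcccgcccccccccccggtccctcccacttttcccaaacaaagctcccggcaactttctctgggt
Vgll4, chr6:114969204-114969453, minus strand: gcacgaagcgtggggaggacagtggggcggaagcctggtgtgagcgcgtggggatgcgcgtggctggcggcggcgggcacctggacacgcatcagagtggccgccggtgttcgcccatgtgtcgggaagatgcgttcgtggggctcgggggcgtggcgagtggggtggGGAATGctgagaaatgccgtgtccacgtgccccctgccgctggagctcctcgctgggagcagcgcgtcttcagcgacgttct
Yap1, chr9:8004597-8004846, minus strand: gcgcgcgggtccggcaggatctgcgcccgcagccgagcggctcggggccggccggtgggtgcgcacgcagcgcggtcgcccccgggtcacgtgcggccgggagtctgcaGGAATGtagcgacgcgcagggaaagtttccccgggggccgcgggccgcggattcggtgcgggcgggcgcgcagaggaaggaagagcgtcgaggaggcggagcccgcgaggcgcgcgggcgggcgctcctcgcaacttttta
Wwtr1, chr3:57575911-57576160, minus strand: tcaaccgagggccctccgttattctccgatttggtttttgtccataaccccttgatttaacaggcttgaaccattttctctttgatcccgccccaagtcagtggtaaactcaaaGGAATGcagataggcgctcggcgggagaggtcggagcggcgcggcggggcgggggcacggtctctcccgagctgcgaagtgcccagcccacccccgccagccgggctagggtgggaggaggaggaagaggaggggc
Vgll1, chrX:57087856-57088105, plus strand: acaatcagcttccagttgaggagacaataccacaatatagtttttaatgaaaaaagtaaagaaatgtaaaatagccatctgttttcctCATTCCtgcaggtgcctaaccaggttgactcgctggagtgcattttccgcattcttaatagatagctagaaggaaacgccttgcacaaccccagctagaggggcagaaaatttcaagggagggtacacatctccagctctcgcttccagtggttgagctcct
The TEAD core was present before at least 1 start of 6 of the 7 members in the table, namely Vgll1, Vgll3, Vgll4, Tead3, Yap1 and Wwtr1. It was found in 12.6% of all 32851 promoter windows of the same length and in 14.4% of 27025 genes when any of their starts was counted. Tead2, 1 of the members with a higher signal in AGR cells, had no match in this window, while Wwtr1 and Vgll1 had one. In the Vgll3 promoter the match began 63 bases before the start, on the opposite strand. A match is a short run of letters and was not tested for binding. The other motifs searched on both strands were the AP-1 element TGANTCA, the E-box CACCTG of Snail and Zeb factors, TATAAA, the CCAAT box and the GC box GGGCGG. AP-1 elements and TATAAA had no match before any of the 7 genes. They were present for 7.82% and 14.3% of the 27025 genes when any start was counted, as in the shares that follow. GC boxes were found for 6 of the 7 genes, against 35.4% of all genes, and 3 of them lay before Vgll3. The only CCAAT boxes of the 7 genes were the 2 before Vgll3, and such boxes were found for 37.5% of all genes. The E-box was found for Vgll1 and Vgll4 only, against 19.4% of all genes. The promoters also differed in base composition. That of Yap1 had a GC content of 76.4% with 44 CG pairs, that of Vgll3 had 66.8% with 16 CG pairs and that of Vgll1 had 44% with 4 CG pairs, where the median of all windows was 52.4% and 6 CG pairs.

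Of the 9 genes, 5 had higher signals on all 3 AGR arrays than on any NME array (Vgll3, Tead2, Tead1, Vgll4 and Yap1). Tead4 had lower signals on all 3 AGR arrays, and the arrays of the lines overlapped for Vgll1, Tead3 and Wwtr1. Over all 19938 genes, 36.4% did not overlap, 17.9% with the higher signals in AGR cells and 18.5% with the higher signals in NME cells. Among the 11702 genes whose mean lay at or above the median of all probe sets, 52.5% did not overlap in either direction. As the genes were chosen on this contrast, nothing is read from the count of members. A mean FC above 2 was reached by Vgll3 and Tead2 toward AGR cells and by none toward NME cells, where 1.50% of all genes reached it in either direction taken singly. Without AGR replicate 1 the log2 difference of Tead2 was 0.97, a FC below 2. The median log2 difference between AGR and NME cells was 0.30 for the 9 genes and -0.02 for all genes. These counts describe RNA per array and do not bear on protein levels, nuclear localization or phosphorylation of Yap1 and Taz.

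**Figure D1:**
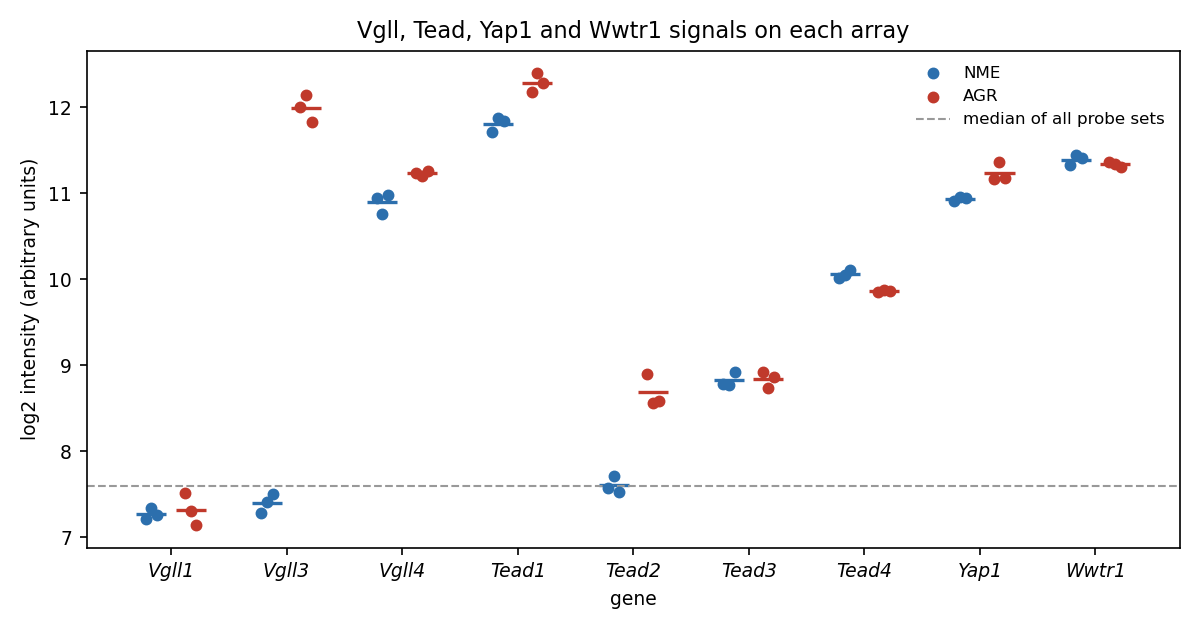
Log2 intensity (y axis) of each of the 9 genes (x axis) on the 3 NME arrays (blue points) and the 3 AGR arrays (red points), with horizontal bars for the means and a dashed line for the median of all probe sets, 7.60. The AGR points of Vgll3 lie between 11.82 and 12.14 and its NME points between 7.28 and 7.50, and heights are not comparable between genes.

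Among the cofactors, Vgll3 separated the lines most. Its log2 intensity was 7.28, 7.41 and 7.50 on NME replicates 1 to 3 and 12.00, 12.14 and 11.82 on AGR replicates 1 to 3. On the linear scale these signals were 155.7 to 181.4 in NME cells and 3621 to 4505 in AGR cells. The NME arrays were dimmer than the median probe set and the AGR arrays far brighter, with a gap of 4.32 on the log2 scale between the nearest arrays of the lines. The mean was 7.40 ± 0.11 (SD, n = 3) in NME cells, at percentile 46.3 of all probe sets, and 11.99 ± 0.16 (SD, n = 3) in AGR cells, at percentile 94.0. The log2 difference was 4.59 (SE 0.09), a 24.1-fold higher mean signal in AGR cells, and it was the first in rank among the log2 differences in signal of all 19938 genes. Because the NME signal could not be separated from background, the ratio of transcript levels may differ from the ratio of signals.
Vgll4 differed much less. Its log2 intensity was 10.95, 10.76 and 10.98 on NME replicates 1 to 3 and 11.23, 11.20 and 11.25 on the AGR arrays. The groups did not overlap, with a gap of 0.22, and NME replicate 2 was the lowest array. The log2 difference was 0.33 (SE 0.07), a 1.26-fold higher signal of the gene for the repressive cofactor in AGR cells.
Vgll1 was dim in both lines. Its values were 7.22, 7.35 and 7.26 in NME cells and 7.51, 7.31 and 7.14 in AGR cells, all under 7.60. The AGR arrays spanned the whole range of the NME arrays, and the log2 difference was 0.05 (SE 0.10). Vgll2, the remaining gene of this family and not among the 9, lay between 8.28 and 8.45 on all arrays, with overlapping lines and a log2 difference of -0.05 (SE 0.05). Within the family a large difference was thus measured for Vgll3, a small one for Vgll4, and differences below the SE for Vgll1 and Vgll2.

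The gene Vgll3 was placed beside its neighbours in chromosomal order, to see whether adjacent genes differed as well. Of the 5 nearest genes with a probe set of their own on either side, limma with its adjusted p under 0.05 called 0 higher and 3 lower in AGR cells, and 7 did not pass. At an unadjusted p under 0.05, 0 were higher by limma and 0 by the methods' test. The latter is an ordinary t test per gene, which the study names for its statistics in general and not for these arrays. Over all genes 12.6% passed as higher and 11.6% as lower in AGR cells by limma with adjustment. Robo1, a receptor of axon guidance, fell by 2.37 on the log2 scale (adjusted p = 1.7e-05 from limma), from 10.23 ± 0.13 (SD, n = 3) to 7.86 ± 0.17 (SD, n = 3). Gbe1, which encodes the glycogen branching enzyme, fell by 0.67, and Chmp2b, a subunit of the ESCRT-III complex for membrane scission and the nearest of these genes on its side, fell by 0.48. The adjusted p from limma was 0.0303 for Gbe1 and 0.00175 for Chmp2b. The others were 4930453N24Rik, Zfp654, Cggbp1, Htr1f, Speer2, Robo2 and Lipi, with log2 differences between -0.24 and 0.04, and 4 of them were under 7.60 on all arrays.

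**Figure D2:**
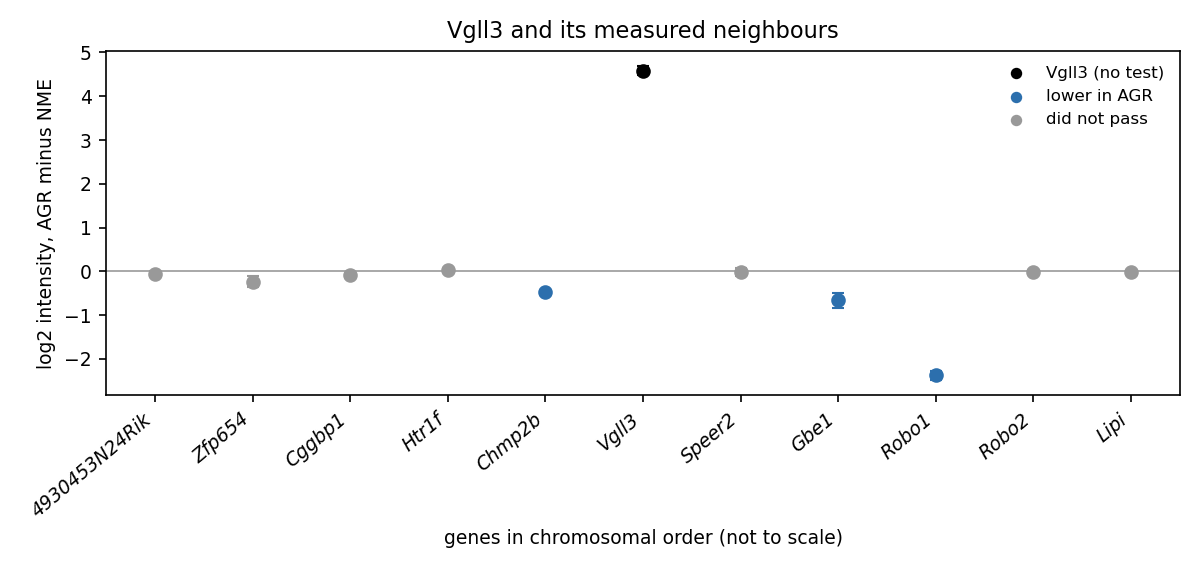
Log2 difference between AGR and NME cells (y axis, points with SE) of Vgll3 and of 5 measured genes on each side in chromosomal order (x axis, not to scale). Vgll3 (black, not tested) stands at 4.59, Chmp2b, Gbe1 and Robo1 (blue) were lower in AGR cells, and gray points did not pass the limma test.

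Genes with an array pattern like that of Vgll3 were found by the root mean square difference of the 6 log2 intensities after each gene had been centred on its own mean. The closest were Lce1i, with a root mean square difference of 0.16, Elmod1 with 0.25, Uts2b with 0.28, Lce1h with 0.33 and Ccbe1 with 0.45. Lce1i and Lce1h encode late cornified envelope proteins of the epidermis. Their signals may include those of similar genes of that family. Ccbe1 encodes a secreted protein needed for lymphatic growth. Their log2 differences between AGR and NME cells ran from 3.72 to 4.49. In NME cells the means of Lce1i, Elmod1 and Uts2b were 6.26, 6.37 and 7.19, under 7.60 like that of Vgll3, where signal and background could not be separated, so these differences are given without an order. With 2 lines and 3 arrays of each, such likeness reflects mainly a difference of similar size between the lines, and no test was made.

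Among the TEADs, Tead2 had the largest difference. Its log2 intensity was 7.57, 7.72 and 7.52 on NME replicates 1 to 3 and 8.90, 8.57 and 8.59 on AGR replicates 1 to 3. NME cells were at the median of all probe sets, with 2 of the 3 arrays below it, and AGR replicate 1 was the highest array. Its NME mean was 7.60 ± 0.10 (SD, n = 3), and the AGR mean was 8.68 ± 0.19 (SD, n = 3). The log2 difference was 1.08 (SE 0.10), a 2.11-fold higher signal, with a gap of 0.85 between the nearest arrays. As the NME signal was near background, the change in transcript level is uncertain here as well. The genes closest to Tead2 in array pattern were Aif1l, Lpcat1, Snn, Fhod3 and Dlc1, with root mean square differences of 0.05 to 0.11 and log2 differences of 1.04 to 1.15, and the NME means of Fhod3 and Dlc1 were also under 7.60. Fhod3 is a formin of actin filaments, and Dlc1 is a GTPase-activating protein.
Tead1 had a bright signal in both lines. Its log2 intensity was 11.71, 11.88 and 11.84 in NME cells and 12.18, 12.39 and 12.28 in AGR cells. The lines did not overlap, and the log2 difference was 0.47 (SE 0.07), a 1.39-fold higher signal in AGR cells. Tead1 was the 1 member with a second probe set. This gave 11.38, 11.46 and 11.41 in NME cells and 11.72, 12.00 and 11.79 in AGR cells, a 1.34-fold difference. AGR replicate 2 was the highest array with both probe sets.
Tead4 went the other way. Its log2 intensity was 10.01, 10.05 and 10.11 in NME cells and 9.85, 9.88 and 9.87 in AGR cells. The AGR arrays lay close together, with an SD of 0.01, and below all NME arrays. The signal in AGR cells was 87.5% of that in NME cells, a log2 difference of -0.19 (SE 0.04).
Tead3 did not separate the lines. Its values were 8.78, 8.77 and 8.92 in NME cells and 8.93, 8.74 and 8.86 in AGR cells, and the log2 difference was 0.02 (SE 0.07). The 4 TEAD genes thus had differences of unlike sign and size between the lines.

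The coactivator genes Yap1 and Wwtr1 differed from each other in this respect. The log2 intensity of Yap1 was 10.90, 10.95 and 10.94 on NME replicates 1 to 3 and 11.16, 11.37 and 11.18 on AGR replicates 1 to 3. The lines did not overlap, and AGR replicate 2 was the highest array, as for Tead1. The log2 difference was 0.30 (SE 0.06), a 1.23-fold higher signal in AGR cells. Wwtr1 gave 11.32, 11.44 and 11.41 in NME cells and 11.36, 11.34 and 11.30 in AGR cells. Its lines overlapped through NME replicate 1, without which every AGR array was lower than the other NME arrays. The log2 difference was -0.06 (SE 0.05), so that the signal in AGR cells was 96.1% of that in NME cells. Both coactivator genes were among the brighter probe sets in either line, at percentiles 86.6 to 90.3.

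**Figure D3:**
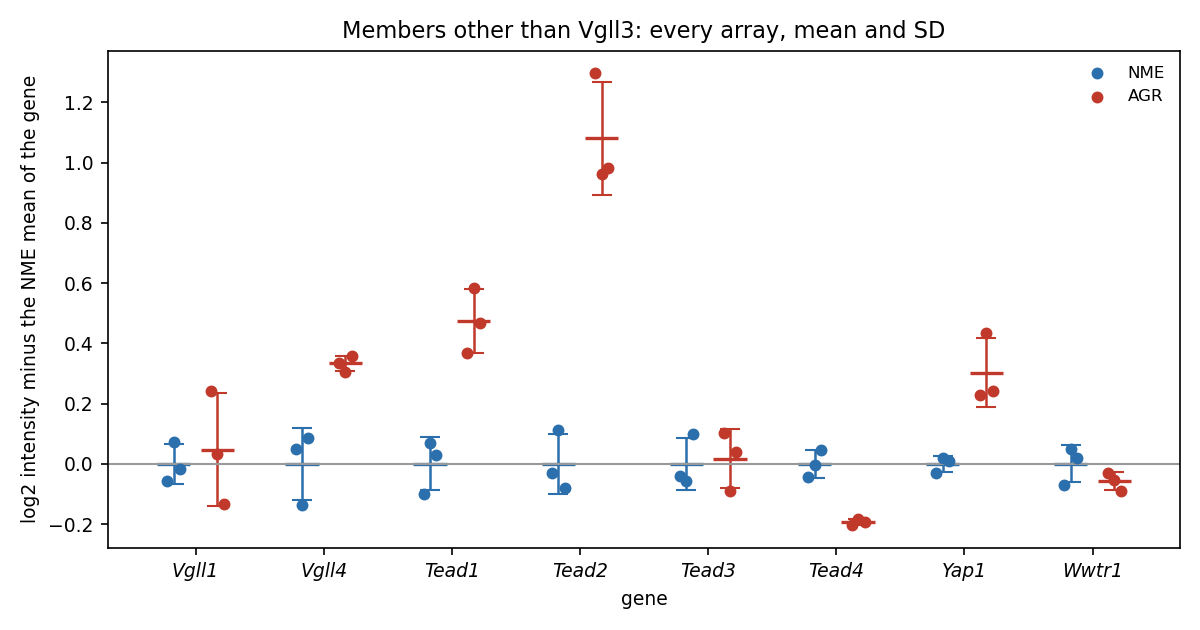
Log2 intensity of every array minus the NME mean of the gene (y axis) for the 8 members other than Vgll3 (x axis), with NME arrays in blue, AGR arrays in red, and bars for the mean and SD of 3 arrays. The AGR points of Tead2, Tead1, Vgll4 and Yap1 lie above and those of Tead4 below all NME points, with a mean difference of 1.08 for Tead2 and -0.19 for Tead4.

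Other genes of the Hippo pathway, which restrains Yap1 and Taz, were then read from 7 lists. They held 138 genes, and 125 of these were measured and tested in limma over all genes. At an adjusted p under 0.05, AGR cells had higher signals of 25 and lower signals of 13, and 87 did not pass. These are shares of 20% and 10.4%, where 12.6% and 11.6% of all genes passed (24.2% in either direction). Among the 11702 genes at or above the median of all probe sets, to which 110 of the 125 belong, 19.7% were higher and 17.5% were lower. The share of higher genes in the lists was close to that of well-measured genes in general, and the share of lower genes was smaller, at 10.4% against 17.5%. The median log2 difference of the 125 genes was 0.04, against -0.02 for all genes. A FC above 2 with an adjusted p under 0.05 was found for Amotl1 alone. Without AGR replicate 2, 30 were higher and 16 were lower.

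Of the core kinases and their adaptors, 1 of 9 measured genes was higher and 1 was lower, and 3 were higher and 2 lower without AGR replicate 2. Lats2, 1 of the kinases that phosphorylate Yap1 and Taz, was higher with a log2 difference of 0.74 (adjusted p = 8.3e-05 from limma). Its paralogue Lats1 had a log2 difference of -0.15 (adjusted p = 0.149 from limma). The LATS adaptor gene Mob1b was lower with -0.23, a call that was lost without NME replicate 1 or 3, without AGR replicate 1 or 3, and with arrays centred on their medians. Among 13 kinases upstream of LATS, Map4k4 (log2 difference 0.59) and Taok1 (0.23) were higher and Tnik (-0.59) was lower, and Taok1 did not pass without NME replicate 1, NME replicate 3 or AGR replicate 3.
Scaffolds, polarity and junction regulators, the largest of the 7 lists, held the most calls, with 9 of 28 higher and 5 lower. These are shares of 32.1% and 17.9%, against 19.7% and 17.5% of genes at or above the median of all probe sets. The angiomotins bind Yap1 and Taz and hold them at junctions and in the cytoplasm, and their 3 genes moved in different directions. Amotl1 rose by 1.34 on the log2 scale, from 9.08 to 10.42 (adjusted p = 2.3e-05 from limma), Amotl2 had a log2 difference of 0.83, and Amot fell by 0.58. Dlg5, a scaffold of cell polarity, and Wwc2, a relative of the Hippo activator Kibra, were higher with log2 differences of 0.65 and 0.54. Those that fell besides Amot were Rassf6, which fell by 0.97, Crb3 by 0.68, Llgl2 by 0.53 and Patj by 0.33. Crb3, Llgl2 and Patj encode proteins of epithelial apicobasal polarity. Llgl1, a paralogue of Llgl2, was higher with a log2 difference of 0.53 (adjusted p = 0.0036 from limma) and is named after its value was seen. Llgl2 did not pass without NME replicate 1 or 3, and neither Llgl2 nor Amot passed with the methods' test after adjustment.
Of 18 genes for inhibitors of the Hippo kinases, Wtip (log2 difference 0.88) and Strn4 (0.16) were higher, and Itch (-0.35) and Sike1 (-0.18) were lower. Wtip is a LIM protein that binds LATS kinases. Strn4 and Sike1 belong to the STRIPAK phosphatase complex. Strn4 lost its call without any 1 of the arrays, Sike1 without any 1 of them but AGR replicate 3, and Itch with the methods' test after adjustment. Of 15 genes for the turnover and retention of Yap1 and Taz, the deubiquitinase genes Otub2 (log2 difference 0.96) and Usp9x (0.56) were higher, and the 14-3-3 gene Ywhab (-0.22) was lower. On this list 2 genes were lower without AGR replicate 1 and 3 without AGR replicate 2. Otub2 varied more between AGR arrays, with an SD of 0.39, and lost its call with the methods' test after adjustment. Of 21 genes for upstream receptors and cytoskeletal signalling, 5 were higher and 2 were lower. The thrombin receptor gene F2r had a log2 difference of 0.83 (adjusted p = 3.3e-05 from limma), the lysophosphatidic acid receptor gene Lpar1 of 0.58, the kinase gene Rock1 of 0.53, the sphingosine-1-phosphate receptor gene S1pr2 of 0.42 and Ilk of 0.26. Lpar6 was lower with -0.60 and Gna13 with -0.24. Neither passed with the methods' test after adjustment, and Gna13 was also lost without NME replicate 1 or 2 and without AGR replicate 1 or 2.
Of 21 further partners of Yap1, Taz or TEADs, 4 were higher and 1 was lower, and 2 were lower without AGR replicate 2. The signal transducers of TGF-β, Smad3 and Smad2, had log2 differences of 0.48 and 0.38, Srf, the serum response factor gene, of 0.31 and the chromatin remodeller gene Chd4 of 0.30. Ncoa3, a nuclear receptor coactivator, was lower with -0.61 (adjusted p = 0.00144 from limma). Medians of the 7 lists lay between -0.03 for these partners and 0.13 for the scaffolds.

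A list of 22 target genes shared by Yap1 and Taz in other systems was read in the same way, and all 22 were measured. By limma with an adjusted p under 0.05, 15 were higher and 1 was lower in AGR cells and 6 did not pass. These are shares of 68.2% and 4.55%. Over all genes 12.6% and 11.6% passed, and 19.7% and 17.5% of those at or above the median of all probe sets, where 20 of the 22 lie. The median log2 difference of the list was 0.42, against -0.02 for all genes. Without AGR replicate 2, 3 targets were lower. Ccn1, a matricellular protein gene, had a log2 difference of 1.55 (adjusted p = 3.5e-05 from limma), Tgfb2 of 1.49 and Ccn2 of 0.93, and Fjx1 was lower with -0.48. Amotl2 with 0.83, Lats2 and Ptpn14 stand on this list as well as on the pathway lists. Ccn1 and Tgfb2 had a FC above 2. Among the called targets, Ccdc80 and Rbms3 were dim, with signals under 7.60 in both lines, and Rbms3 did not pass without NME replicate 1, NME replicate 3 or AGR replicate 3. The list was chosen with earlier results of these arrays known, so its count is not independent evidence. Whether any of the cofactors or TEADs acts on these genes was not tested.

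**Figure D4:**
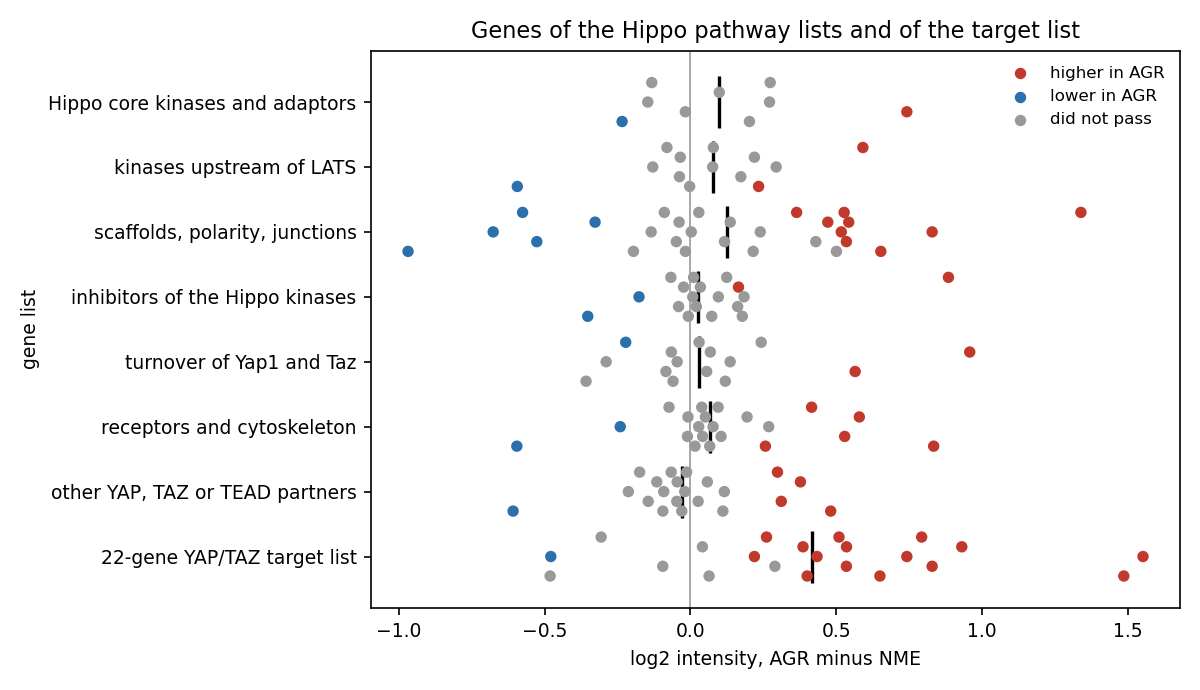
AGR minus NME log2 intensity (x axis) for the measured genes in the 7 Hippo pathway lists and the 22-gene target list (y axis, points spread vertically for legibility). Red marks genes called higher in AGR cells and blue those called lower (limma, adjusted p under 0.05), the rest are gray, and black bars are medians, at 0.42 for the target list and between -0.03 and 0.13 for the others.

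Marker genes of several cell types were also read. Of 11 mammary epithelial markers, 7 were above 7.60 in both lines, among them Krt8, Krt18 and Cdh1, whereas Epcam, Krt5, Krt14 and Cldn7 were below it. Above 7.60 in NME cells were also 4 of 9 fibroblast, 4 of 9 skeletal muscle and 3 of 5 trophoblast markers. The same held for 2 of 7 immune and 1 of 6 endothelial markers, so this count does not set cell types apart. The summed intensity of the mammary epithelial markers was 56013 to 56635 in NME cells and 44286 to 45497 in AGR cells. Krt19 and Cdh1 were the markers that passed as lower in AGR cells, by 1.04 and 0.60 on the log2 scale. Skeletal muscle markers, of interest because Vgll2 and Vgll3 are known from muscle, had summed intensities of 1908 to 2162 in NME cells and 1932 to 1996 in AGR cells. Of the 9, limma called 0 with adjustment and 0 at an unadjusted p under 0.05, and the methods' test called 0 unadjusted. Fibroblast markers summed to 1788 to 1970 in NME cells and to 1825 to 1949 in AGR cells. Of these 9, Pdgfra, a receptor of mesenchymal cells, passed as higher in AGR cells with a log2 difference of 0.39 (adjusted p = 0.00824 from limma). Its means were 7.41 in NME cells and 7.79 in AGR cells, near the level where signal and background could not be separated. Trophoblast markers summed to 891.1 to 1020 in NME cells and to 877.8 to 919.7 in AGR cells, and of 5 measured Cdx2 passed as lower with -0.36 (adjusted p = 0.00408 from limma). Endothelial markers summed to 737.6 to 815.4 in NME cells and to 731.5 to 766.1 in AGR cells, and 0 of 6 were called by limma, with or without adjustment, or by the methods' test unadjusted. Immune markers summed to 1009 to 1056 in NME cells and to 1299 to 1350 in AGR cells. Cd68 and Csf1r passed as higher in AGR cells. The mean of Cd68 went from 7.96 in NME cells to 8.93 in AGR cells, above 7.60 in both lines. Its log2 difference was 0.96 (adjusted p = 3.1e-04 from limma). The mean of Csf1r went from 7.56 to 7.83, near the level where signal and background could not be separated. At an unadjusted p under 0.05, limma called 4 of the 7 and the methods' test 2. Over all 19938 genes, the methods' test without adjustment called 2954 higher and 2914 lower, so nothing is read from its count. Lyz2 (log2 difference 0.31) and Itgam (-0.18) did not pass with adjustment (adjusted p = 0.0918 and 0.0945 from limma). Both were under 7.60 in both lines, as were the defining markers Ptprc and Adgre1. The part of such cell types in the differences described was not tested. Egfr was bright in both lines, at 12.26 to 12.38 in NME cells and 12.40 to 12.75 in AGR cells. Arrays of a line had correlations of 0.995 to 0.997 across probe sets, which are not independent replicates, and arrays of different lines of 0.986 to 0.988.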

How the data were processed

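Total RNA of NME and AGR cells was labelled with biotin and hybridized to Affymetrix Mouse Gene 1.0 ST arrays, 3 for each line. The deposited values are linear intensities processed by the authors, and MAS5 is named in the submitters' notes. MAS5 uses mismatch probes, which this array type lacks, so the normalization is unknown. Column medians were 190.4 to 200.8. The number of arrays limits the precision, and p-values cover only the spread among arrays, which may be technical.

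Log2 was taken with no offset. Of 35557 probe sets, the 21789 with 1 gene symbol in the platform annotation were used (1621 had several and 12147 none), and the brightest stood for each of 19938 genes. RefSeq (GRCm38.p6) gave the gene order. Lines were compared with limma 3.58.1 under R 4.3.3 (lmFit, eBayes, Benjamini-Hochberg over all genes), and the code was tested on simulated data.

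Members and lists were chosen with earlier results of these data known. Named were all members, Vgll2, 10 neighbours of Vgll3, the 5 genes nearest in pattern to each member with a FC above 2, and list genes that passed (all if 5 or fewer in a direction, otherwise the 4 with the largest FC). Lats1, Llgl1, Ptpn14, Ccdc80, Rbms3 and the markers lie outside this rule and were chosen after their values were seen. Pals1 was matched as Mpp5. The other 13 genes of the 7 Hippo pathway lists were not analysed here.

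Alternatives were quantile normalization, centring of arrays on their medians, an offset of 16, filters at the median and at percentile 25 of the probe sets, averaging a gene's probe sets, a trended and robust eBayes, the methods' test, the replicate number as a block, leaving out each array, and a FC above 2.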

Additional observations from a re-analysis of the deposited data

How the results depend on the processing

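The log2 differences of the 9 members moved by less than the SD between replicates with quantile normalization, centring and an offset of 16 before log2. The same held for Tead1 when its probe sets were averaged. The filters and the block cannot change these differences, and leaving out a single array cannot move them by more than that SD. Those settings were therefore no check of this. Over all alternatives the differences lay between 4.46 and 4.67 for Vgll3, 0.97 and 1.14 for Tead2, and 0.42 and 0.53 for Tead1. The ranges were 0.26 to 0.38 for Vgll4, 0.24 to 0.34 for Yap1, and -0.21 to -0.17 for Tead4. Vgll1 and Tead3 changed sign when single arrays were left out, and the filter at the median removed Vgll1, which left 8 members. The 6 members whose lines did not overlap were the same under each alternative that gives this count, and Wwtr1 joined them without NME replicate 1. Leaving out an array cannot make separated lines overlap, and the filters leave the values unchanged. The offset keeps the order of the arrays, so it cannot make them overlap either. Only the normalizations and, for Tead1, averaging could have removed a member from this count.

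Same-numbered arrays did not deviate together (correlations of -0.13, 0.20 and 0.01), so the numbers were not taken as pairs. The replicate number as a block cannot change the log2 differences, because each number has 1 array of each line. With this block 30 genes of the 7 pathway lists were higher and 11 lower, and 16 and 2 of the targets. Without 1 array, 23 to 30 genes of the pathway lists were higher and 9 to 16 lower, and 14 to 15 and 1 to 3 of the targets, the 3 without AGR replicate 2. The methods' test after adjustment gave 22 higher and 7 lower pathway genes, and without adjustment 32 and 14. With a FC above 2 required, 1 pathway gene and 2 targets were higher and 0 were lower in either list, and 299 of all genes were higher and 299 lower, in place of 2515 and 2304. Centring on array medians moved the median difference of all genes from -0.02 to 0.01 and gave 2683 higher and 1916 lower genes. Of the 51 calls on the pathway and target lists, 50 were kept with quantile normalization, 48 with centring and with the block, and 42 with the methods' test after adjustment. The cause of these losses was not tested. Depth cannot be given for arrays, and for Vgll1, and for Vgll3 and Tead2 in NME cells, signal near background limits the precision.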
